A study of Homo sapiens with 27 samples.

Results

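MicroRNA (miRNA) signals were compared between OCI-AML3 cells exposed to SDF-1α at 100 ng/mL for 2 h (3 arrays) and untreated OCI-AML3 cells taken at 0 h (3 arrays), over every human miRNA probe of the array. The 6 arrays were picked by their sample labels from the 27 arrays of the study, and 774 of the 784 probes were kept, leaving out 10 control probes. The remaining arrays held SDF-1α at 100 ng/mL for 1, 4 and 8 h and POL6326, a CXCR4 antagonist, at 250 nM for 1, 2, 4 and 8 h, with 3 arrays in each group. OCI-AML3 is an established human acute myeloid leukaemia line that carries a mutated NPM1 gene, and all groups were grown in the same medium with serum. Because the untreated cells were taken at 0 h only, exposure to SDF-1α and the time in culture cannot be told apart in this comparison. Whether the 3 arrays of each group stand for separate cultures is not stated in the labels. Each p-value for a probe therefore rests on the spread between arrays of a group, pooled over all 9 groups, which may be technical. In bulk RNA, fewer cells with a miRNA and less of it in each cell cannot be told apart.

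SDF-1α, also named CXCL12, is a chemokine made by bone marrow stroma, and it binds the receptor CXCR4 on leukaemic cells and holds them in the marrow. A miRNA is cut from a hairpin precursor to a short mature strand that pairs with messenger RNAs mainly through its seed, the stretch near its 5′ end, and lowers the output of those messages. The series title names let-7a together with CXCR4, and the array asks which miRNAs differ after the receptor is stimulated.

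The mature sequences of the miRNAs that the results turn on were taken from RefSeq on GRCh38.p14, with the seed (bases 2 to 8) in capitals. Arm names follow the RefSeq entry where the array gives none, and 12 of the 14 mature probes past the threshold had an entry. The first set is shown because its members share a seed with a miRNA that was lower after SDF-1α.
miR-30c: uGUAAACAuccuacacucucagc
miR-30a: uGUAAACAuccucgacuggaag
miR-212: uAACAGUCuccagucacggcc
miR-132: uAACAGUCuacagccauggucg
The second set holds miR-128a and miRNAs of the HOX gene clusters, of which miR-10a was lower, miR-196b was higher and miR-196a did not pass the test.
miR-128a: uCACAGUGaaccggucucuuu
miR-10a: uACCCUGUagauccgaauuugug
miR-196b: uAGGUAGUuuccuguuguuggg
miR-196a: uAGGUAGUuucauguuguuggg
The third set holds let-7i, which was higher, beside its relatives, and miR-137.
let-7i: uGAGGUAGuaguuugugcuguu
let-7d: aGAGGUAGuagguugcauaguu
let-7a: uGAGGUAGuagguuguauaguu
miR-137: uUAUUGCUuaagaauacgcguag
The 12 mature probes past the threshold that had a sequence carried 12 different seeds, so no pair of them shared one. Within the families, miR-196b and miR-196a differ at 1 of 22 positions, let-7i and let-7a at 4 of 22, miR-30c and miR-30a at 5 of 22, and miR-212 and miR-132 at 4 of 21. How far the probes of such relatives read one another was not tested.

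On every array many dim probes were tied at a single low value, referred to as the floor, and 1 to 39 probes read lower still and were treated as tied with it. An array's detection limit is its smallest value over the floor. At SDF-1α 2 h 327, 317 and 332 probes lay above the floor, against 560, 304 and 257 probes on control arrays 1, 2 and 3. The SDF-1α arrays were close to one another, and control array 1 stood apart with the most probes. The means were 325 ± 7.64 probes at SDF-1α 2 h and 374 ± 163 in control (SD, n = 3 each), with a two-sided p of 1 in an exact permutation test, where the smallest possible is 0.1. Without control array 1 the difference was 44.8 probes in favour of SDF-1α. The detection limits were log2 signals of 5.14, 5.44 and 5.12 at SDF-1α 2 h, against 4.30, 5.83 and 6.45 in control. All 6 arrays read 222 probes above the floor, and 203 probes were at the floor on all 6. Another 161 probes were above it on control array 1 alone. Over the 222 probes the median SD was 0.23 at SDF-1α 2 h and 0.43 in control. The authors' values share 1 highest value, 15.46, on all 27 arrays, so arrays that read a probe at that value cannot be told apart on it. Of 13 probes for myeloid and haematopoietic markers 0 passed the test (0.0 higher and 1.0 lower at an unadjusted p under 0.05), and miR-223, the leading myeloid miRNA, read 15.12, 15.12 and 15.12 at SDF-1α 2 h against 14.39, 15.46 and 15.12 in control.

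After 2 h of SDF-1α, 20 of 774 probes (2.58%) differed from control at an adjusted p under 0.05 in limma, with 12 higher (1.55%) and 8 lower (1.03%). The lower ones were miR-30c, miR-212, miR-128a, miR-10a, miR-543, miR-214 and the precursors of miR-646 and miR-194-1. The higher ones were miR-196b, miR-137, let-7i, miR-483-3p, miR-138-1*, miR-561, miR-548d-3p and miR-125b-2*, with the precursors of miR-433, miR-599, miR-431 and miR-658. Of the 20, 14 were mature miRNA probes and 6 precursor probes, and 12 were above the floor on all 6 arrays, of which 6 were higher and 6 lower. The groups did not overlap for 15 of the 20, and over all probes they did not overlap for 79 (10.2%), with 43 higher (5.56%) and 36 lower (4.65%). At an unadjusted p under 0.05 there were 112 probes (14.5%). Over all 774 probes the median log2 difference was 0.01, and over the 222 it was 0.11. Leaving out single arrays moved the count of 20 widely. It was 14, 1 and 5 without SDF-1α arrays 1, 2 and 3, and 9, 14 and 29 without control arrays 1, 2 and 3. The single probe left without SDF-1α array 2 was miR-196b. Of the 6 ways to leave out an array, miR-196b stayed past the threshold in 6, miR-128a and miR-30c in 5, miR-212, miR-138-1*, miR-548d-3p, miR-125b-2* and the miR-431 precursor in 4, and the miR-194-1 precursor in 3. miR-137, miR-483-3p and the miR-433 and miR-646 precursors stayed in 2, let-7i, miR-214, miR-543 and miR-561 in 1, and miR-10a and the miR-599 and miR-658 precursors in 0. Setting each value at the floor to the detection limit of its own array, an alternative chosen after seeing the data, gave 5 probes, 1 higher and 4 lower, of which miR-128a and the precursors of miR-433 and miR-646 were among the 20.

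**Figure D1:**
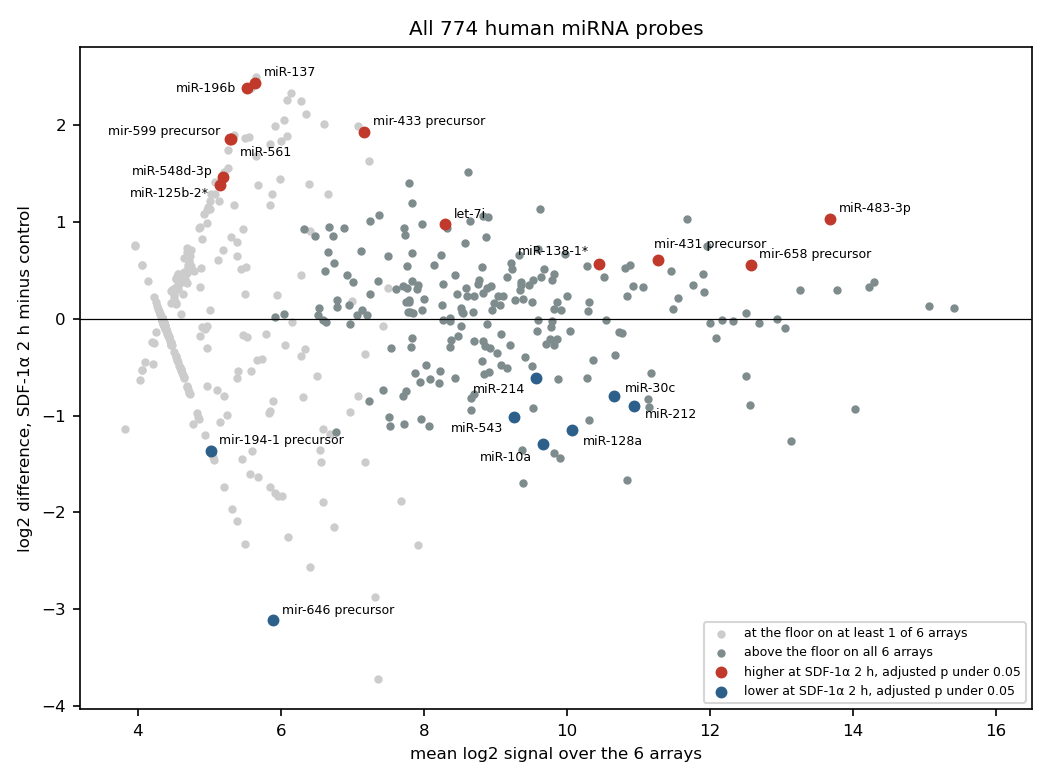
Log2 difference of SDF-1α 2 h minus control (vertical axis) against the mean log2 signal over the 6 arrays (horizontal axis) for all 774 human miRNA probes. The 8 lower calls include 6 probes above the floor on every array, between miR-214 at -0.61 and miR-10a at -1.30, and the higher calls at low signal had most control arrays at the floor.

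miR-30c, of a family known for restraining the epithelial to mesenchymal switch, read 10.36, 10.07 and 10.36 at SDF-1α 2 h against 11.04, 11.14 and 11.00 in control. All SDF-1α arrays lay under every control array. The log2 difference was -0.80 (SE 0.14, adjusted p = 0.00943), a signal 1.74-fold lower, and its 95% interval ran from -1.10 to -0.50. miR-212, which is made from the same transcript as miR-132 and is induced by CREB in neurons, read 10.60, 10.47 and 10.39 against 11.48, 11.46 and 11.23 in control. The groups were apart, and the signal was 1.87-fold lower (log2 difference -0.90, SE 0.18, adjusted p = 0.00976). miR-128a, a miRNA abundant in brain and used to tell lymphoid from myeloid acute leukaemia, read 9.24, 9.66 and 9.60 at SDF-1α 2 h against 10.39, 10.89 and 10.68 in control. Again no array overlapped, and the signal was 2.22-fold lower (log2 difference -1.15, SE 0.23, adjusted p = 0.00976).

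miR-10a lies in the HOXB gene cluster and is abundant in acute myeloid leukaemia with mutated NPM1. It read 8.98, 9.02 and 9.04 at SDF-1α 2 h against 10.16, 10.52 and 10.24 in control. The SDF-1α arrays lay close together and below all control arrays. The log2 difference came to -1.30 (SE 0.33, adjusted p = 0.0387), and the call held in 7 of 12 other settings, not with median centring, quantile normalization, the replicate block, the covariate or floor values at the detection limits. miR-543, from the imprinted DLK1-DIO3 region, read 8.83, 8.65 and 8.76 against 9.68, 9.97 and 9.64 in control, which made a log2 difference of -1.02 (SE 0.25, adjusted p = 0.0322). The stromal miRNA miR-214 read 9.28, 9.39 and 9.10 against 9.83, 9.92 and 9.85 in control. It was 1.53-fold lower (log2 difference -0.61, SE 0.14, adjusted p = 0.0219). None of these groups overlapped. The miR-214 call held in 7 of 12 other settings, and among those that lost it were median centring and quantile normalization. Another miR-214 probe, marked Plus/Minus, was at the floor on every SDF-1α array and on control arrays 2 and 3.

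The precursor probe of miR-646 was at the floor on all 3 SDF-1α arrays, against 8.48, 7.24 and 6.65 in control. Its signal was at least 4.66-fold lower, set against the detection limits of the SDF-1α arrays (adjusted p = 0.0187). The precursor probe of miR-194-1 was likewise at the floor on every SDF-1α array, against 4.58, 5.96 and 6.56 in control, so its signal was at least 1.38-fold lower (adjusted p = 0.0170). Control array 1 read it at 4.58, under the detection limits of all SDF-1α arrays, so overlap cannot be judged there. miR-29a* had the same pattern, with 4.69, 5.91 and 6.52 in control and the floor on every SDF-1α array, and did not pass the test (adjusted p = 0.266).

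Among the higher probes, let-7i, a member of the let-7 family that restrains RAS and MYC, read 8.72, 8.76 and 8.89 at SDF-1α 2 h against 7.86, 7.62 and 7.95 in control. Every SDF-1α array lay over every control array. The signal was 1.97-fold higher (log2 difference 0.98, SE 0.23, adjusted p = 0.0219). miR-483-3p, encoded within the IGF2 gene, read 14.39, 14.01 and 14.19 against 12.57, 13.39 and 13.52 in control, a log2 difference of 1.04 (SE 0.25, adjusted p = 0.0280). It was among the 8 brightest mature probes, and control array 1 was its lowest array. miR-138-1*, the opposite strand of a hairpin active in brain, read 10.69, 10.68 and 10.82 against 10.15, 10.24 and 10.10 in control. The arrays were apart although the step was small, at 0.57 on the log2 scale (SE 0.11, adjusted p = 0.00976). Another miR-138-1* probe, marked Plus/Minus (a mark not explained in the sources used), read 9.74, 9.64 and 9.79 against 9.66, 9.16 and 9.17 in control. Its groups overlapped, and it did not pass the test (log2 difference 0.40, adjusted p = 0.266).

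miR-196b, a HOXA-cluster miRNA that is high in leukaemias with active HOX genes, read 6.54, 6.96 and 6.65 at SDF-1α 2 h and was at the floor on all 3 control arrays. It was the only one of the 774 probes above the floor on every SDF-1α array and at it on every control array. All its SDF-1α values lay over the detection limits of all control arrays, so the signal was at least 2.28-fold higher (adjusted p = 0.000331), or at least 1.49-fold without control array 1. It passed the test without each of the 6 arrays in turn and under 9 of 10 other settings, with an adjusted p of 0.131 when each floor value was set to its array's detection limit. miR-137, a miRNA of neuronal maturation, read 6.51, 7.02 and 7.06 at SDF-1α 2 h against 4.56 and then the floor on control arrays 2 and 3. No array overlapped, and the fitted log2 difference was 2.44 (SE 0.55, adjusted p = 0.0187), or 1.25 with floor values set to the detection limits.

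For 4 further higher probes the control held 1 array just above the floor and 2 arrays at it. miR-561 read 6.48, 6.27 and 5.89 at SDF-1α 2 h against 4.36 on control array 1. The precursor of miR-599 read 6.05, 6.10 and 6.55 against 4.41 on that array. miR-548d-3p read 5.29, 6.38 and 6.12 against 4.66, and miR-125b-2* read 5.39, 5.91 and 6.22 against 4.64 on that array. Most of these SDF-1α values are under the detection limit of control array 3, 6.45, and that array holds no value between its floor and this limit. With floor values at the detection limits the log2 differences shrank to 0.66 for miR-561, 0.67 for the miR-599 precursor, 0.28 for miR-548d-3p and 0.20 for miR-125b-2*, and at these values the groups overlap.

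**Figure D2:**
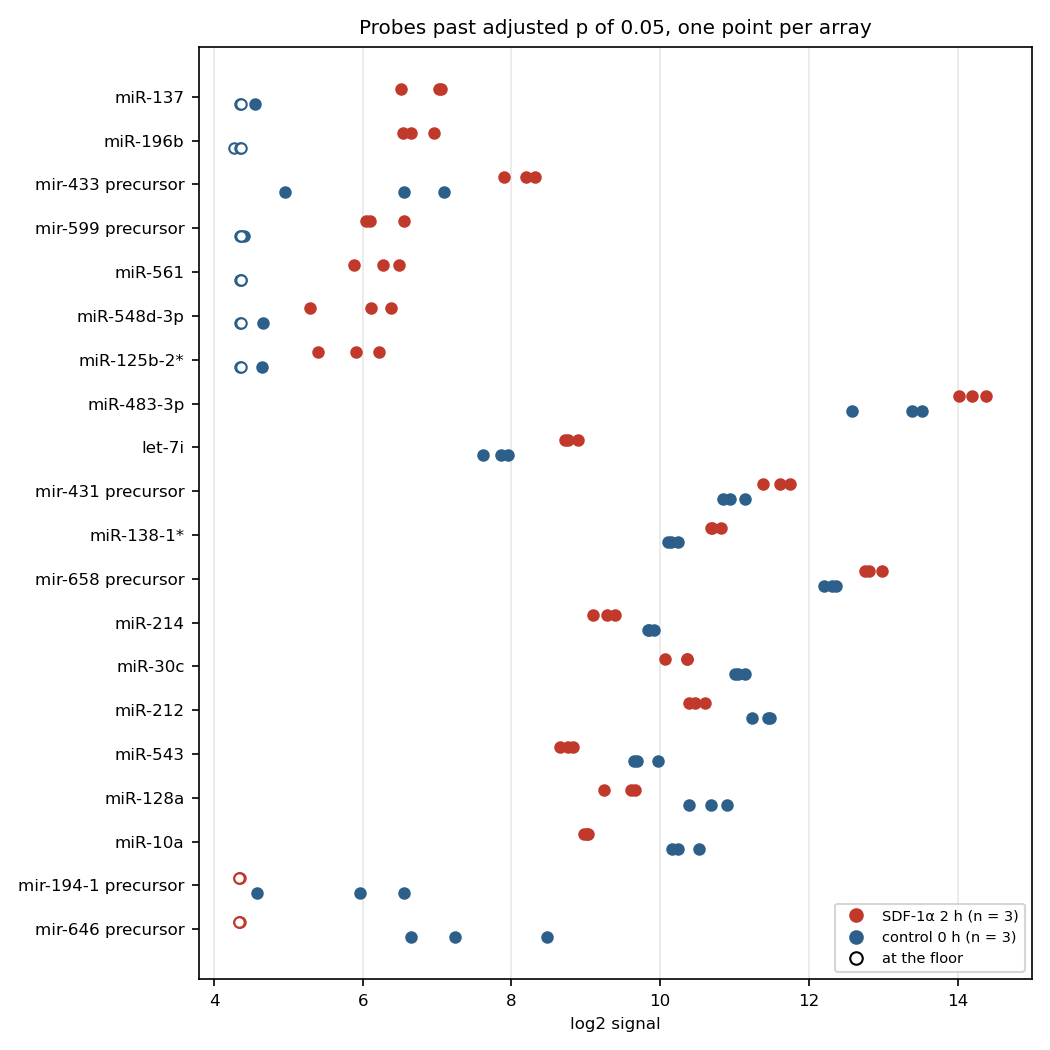
Log2 signal (horizontal axis) of the 20 probes past an adjusted p of 0.05, 1 row per probe, with the SDF-1α 2 h arrays in red above the control arrays in blue and open points at the floor. The 6 lowest-signal rises had 2 or 3 control arrays at the floor, and miR-30c, miR-212, miR-128a and miR-10a show separate groups well above it.

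Precursor probes gave 4 of the rises. The precursor of miR-431 read 11.60, 11.75 and 11.38 at SDF-1α 2 h against 10.84, 10.93 and 11.14 in control (log2 difference 0.61, SE 0.13, adjusted p = 0.0141). That of miR-433 read 7.90, 8.32 and 8.20 against 4.96, 7.09 and 6.55 in control (log2 difference 1.94, SE 0.48, adjusted p = 0.0321). Both lie in the DLK1-DIO3 region, and all their SDF-1α arrays exceeded all control arrays. The precursor of miR-658 read 12.81, 12.76 and 12.99 against 12.31, 12.36 and 12.20 in control, the smallest of the rises at a log2 difference of 0.56 (SE 0.14, adjusted p = 0.0426), and past the threshold in 4 of 12 other settings.

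The mature and precursor probes of 1 miRNA did not always move together. The precursor of miR-212 read 9.85, 10.14 and 9.94 at SDF-1α 2 h against 10.31, 10.87 and 10.57 in control, lower like mature miR-212 on every array, with an adjusted p of 0.0804. The precursor of miR-128a also read lower, with 5.15, the floor and 7.41 against 7.81, 7.34 and 7.44 in control (log2 difference -1.90, adjusted p = 0.123). The precursor of miR-196b, in contrast, read 9.76, 9.81 and 9.66 against 9.89, 9.81 and 9.77 in control, where mature miR-196b was at the floor. Its log2 difference was -0.08 (SE 0.12, adjusted p = 0.993). Mature miR-599, whose precursor was called higher, read 8.20, 8.52 and 9.04 at SDF-1α 2 h against 8.51, 8.24 and 8.24 in control. Those groups overlapped (log2 difference 0.26, adjusted p = 0.993). Mature miR-431 and miR-433 were at the floor on every SDF-1α array, and mature miR-646 on all 6 arrays, so their precursor calls have no mature reading beside them. A precursor probe can also bind the mature strand it contains, and the share of either was not tested.

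In the let-7 family, 1 of 17 probes rose, let-7i, and 0 fell, against 2.58% called over all probes. The family's median log2 difference was 0.01, equal to that of all probes. let-7a, the member named in the title of the series, read 6.75, 8.10 and 6.40 at SDF-1α 2 h against 8.24, 8.09 and the floor in control. The groups overlapped, and the log2 difference of 0.19 (SE 0.80, adjusted p = 0.993) had a 95% interval from -1.49 to 1.86. Its sign turned without control array 3, without SDF-1α array 2 and with floor values at the detection limits. With a single detection limit it also turned (log2 difference -0.49). let-7d read 8.42, 8.49 and 8.58 at SDF-1α 2 h against 7.36, 6.60 and 7.31 in control, apart on all arrays, with a log2 difference of 1.40 and an adjusted p of 0.122. At an unadjusted p under 0.05 the family had 4 of 17 probes higher and 0 lower, against 14.5% of all probes in either direction. Beside let-7i and let-7d these were let-7d* (adjusted p = 0.173) and let-7f (adjusted p = 0.319). let-7i, let-7d and let-7a share the seed shown above.

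Of 11 miR-30 probes 1 fell, miR-30c, and 0 rose, against 2.58% called over all probes. The other 3 family members above the floor on all arrays also read lower at SDF-1α 2 h, without passing the test. miR-30a read 8.13, 8.42 and 8.19 against 8.91, 9.17 and 9.12 in control (log2 difference -0.82, adjusted p = 0.123). miR-30b read 10.53, 11.00 and 11.16 against 11.41, 11.50 and 11.48 in control, and miR-30d overlapped between the groups (log2 differences -0.56 and -0.62). The list's median log2 difference was -0.08 over all 11 probes and -0.71 over these 4, against 0.01 and 0.11 for all probes taken the same way.

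Of 11 probes for miRNAs in the HOX clusters, miR-196b rose and miR-10a fell, against 2.58% called over all probes. The list median was 0.34, against 0.01 for all probes. miR-196a, whose sequence has 1 position unlike miR-196b, read 7.08, 7.21 and 7.64 at SDF-1α 2 h against 6.20 and then the floor on control arrays 2 and 3 (log2 difference 2.34, adjusted p = 0.123). miR-10b, the HOXD relative of miR-10a, read 9.26, 9.09 and 8.85 against 8.84, 9.63 and 9.54 in control. Its groups overlapped, with a log2 difference of -0.27 (adjusted p = 0.938), and whether miR-10a and miR-10b differed from each other was not tested.

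Among 12 probes for inflammatory miRNAs, miR-212 fell and 0 rose, against 2.58% called over all probes. The list median was -0.38, against 0.01 for all probes. The miR-132 probe marked Plus/Minus, a mark the sources used here do not explain, read 8.55, 8.60 and 8.45 at SDF-1α 2 h against 10.30, 10.79 and 9.60 in control (log2 difference -1.70, adjusted p = 0.0863). Those groups were apart, while the plain miR-132 probe was at the floor on every SDF-1α array and on 2 control arrays. miR-146b-5p, a brake on NF-kB signalling, was at the floor on SDF-1α arrays 1 and 2, with 6.23 on the third, against 5.80, 8.03 and 7.83 in control (adjusted p = 0.137). miR-155, a driver of inflammation, overlapped at 11.84, 11.41 and 11.36 against 11.06, 11.55 and 11.68 in control.

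Of 12 probes for miRNAs reported to target CXCR4 or CXCL12, 0 passed the test (0.0 higher and 3.0 lower at an unadjusted p under 0.05), and the list median was -0.12. Over all probes 14.5% had an unadjusted p under 0.05 in limma, in either direction. miR-23a, reported to target CXCL12, read 9.55, 8.94 and 9.06 at SDF-1α 2 h against 11.81, 9.86 and 10.21 in control (log2 difference -1.44, adjusted p = 0.122). miR-126*, of endothelial and stem cells, was at the floor on 2 SDF-1α arrays and read 6.44 on the other, against 6.32, 6.87 and 7.43 in control (adjusted p = 0.213). miR-146a, which targets CXCR4, was at the floor on every SDF-1α array and on 2 of 3 control arrays.

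**Figure D3:**
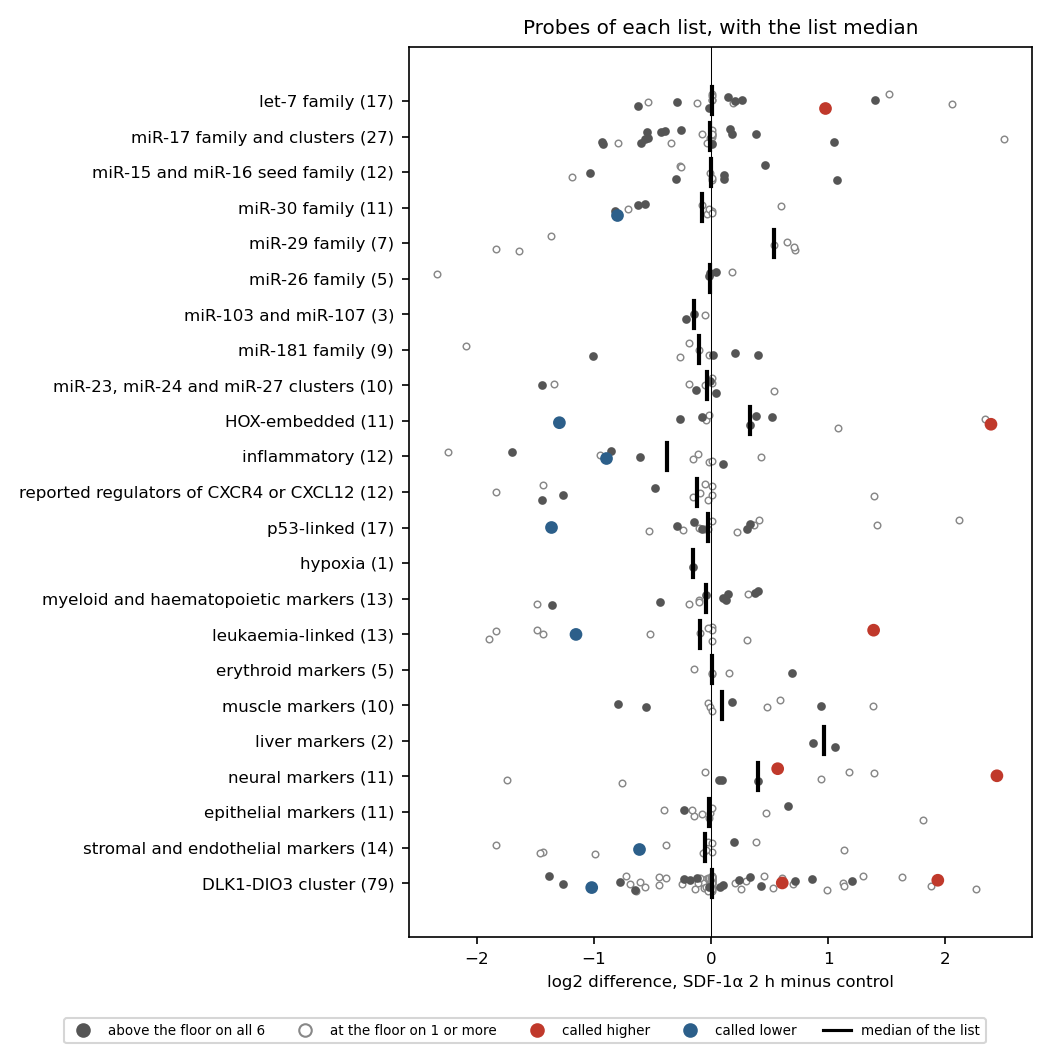
Log2 difference of SDF-1α 2 h minus control (horizontal axis) for the probes of each list, with the number of probes in brackets and a bar at the list median. Called probes are red (higher) or blue (lower), and no list had more than 3.

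The DLK1-DIO3 cluster, a large imprinted group of miRNAs on chromosome 14, was the list with the most probes, 79. Of these the miR-431 and miR-433 precursors rose and miR-543 fell, against 2.58% called over all probes. The median log2 difference of the list was 0.01, that of all probes. miR-136* from this cluster read 8.91, 9.18 and 9.30 at SDF-1α 2 h against 10.65, 10.86 and 10.04 in control, apart on every array (log2 difference -1.39, adjusted p = 0.122). In the miR-17 family and its clusters, which promote growth, 0 of 27 probes passed. At an unadjusted p under 0.05 in limma 1.0 was higher and 2.0 lower, against 14.5% of all probes in either direction. There miR-92a read 13.39, 13.64 and 13.64 against 14.19, 14.65 and 14.65 in control (log2 difference -0.93, adjusted p = 0.182), and miR-17* had the smallest p of the list (log2 difference 2.50, adjusted p = 0.0753). miR-17* read 6.36, 6.64 and 7.74 at SDF-1α 2 h against 4.52 and then the floor on control arrays 2 and 3. Its difference therefore depends on where the floor lies, and with a single detection limit it was 0.49.

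Markers of other cell types were read in the same way. Of 11 neural probes, miR-137 and miR-138-1* rose and 0 fell, against 2.58% called over all probes, with a list median of 0.40. At an unadjusted p under 0.05 in limma 5 were higher and 0 lower, against 14.5% of all probes in either direction. The 5 include both probes of miR-138-1*. The plain miR-138 probe was at the floor on every SDF-1α array and on control arrays 2 and 3. The miR-138 probe marked Plus/Minus read 12.46, 12.41 and 12.76 at SDF-1α 2 h against 12.27, 12.46 and 12.70 in control. Of 14 stromal and endothelial probes, miR-214 fell, while miR-143 and miR-126, defining members of that list, were at the floor on all 6 arrays. The erythroid, muscle, liver and epithelial lists had 0 calls in 5, 10, 2 and 11 probes. miR-122, which defines liver cells, read 8.07, 8.09 and 8.34 at SDF-1α 2 h against 6.04, 7.76 and 8.08 in control (log2 difference 0.87, adjusted p = 0.631). Among leukaemia-linked miRNAs 1 of 13 rose, miR-125b-2*, and 1 fell, miR-128a. Mature miR-125b was at the floor on every SDF-1α array and on control arrays 2 and 3. Among p53-linked ones 1 of 17 fell, the miR-194-1 precursor, with mature miR-194 also at the floor on every SDF-1α array. miR-194* read higher without passing the test (log2 difference 1.42, adjusted p = 0.350). The miR-15 and miR-16, miR-29, miR-26, miR-103 and miR-107, miR-181, and miR-23, miR-24 and miR-27 lists had 0 calls, as did miR-210, the single hypoxia probe.

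SDF-1α and POL6326 were set against each other at the matched time of 2 h, where time in culture is shared. Here 32 of 774 probes (4.13%) differed, 16 higher (2.07%) and 16 lower (2.07%) at SDF-1α. Of the 20 probes that differed from control, 4 also differed from POL6326 at 2 h, in comparisons that share the SDF-1α 2 h arrays. miR-196b averaged 6.72 at SDF-1α 2 h and was at the floor on all POL6326 2 h arrays (log2 difference 2.37, SE 0.32, adjusted p = 0.000184). miR-548d-3p was likewise at the floor on all POL6326 2 h arrays (log2 difference 1.58, adjusted p = 0.00200), and the miR-658 precursor was higher by a log2 difference of 0.56 (adjusted p = 0.0300). With floor values at the detection limits the adjusted p was 0.0407 for miR-196b, 0.683 for miR-548d-3p and 0.250 for the miR-658 precursor, whose call was also lost without each of the 6 arrays in turn. miR-125b-2* was lower at SDF-1α 2 h, with a mean of 5.84 against 7.65 at POL6326 2 h (log2 difference -1.80, adjusted p = 0.000610), although above control.

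For the other 16 of the 20 the difference between SDF-1α and POL6326 at 2 h missed the threshold. For miR-30c it was 0.12 with a 95% interval from -0.18 to 0.43, for miR-212 it was 0.13 (-0.24 to 0.50), and for let-7i it was 0.31 (-0.16 to 0.79). The intervals for miR-10a, -0.22 to 1.15, and for miR-137, -1.25 to 1.04, were wide. Both treatments were set against the same control arrays, so their differences from control are given side by side only. For miR-30c these were -0.80 at SDF-1α 2 h and -0.92 at POL6326 2 h, and for miR-10a -1.30 at SDF-1α 2 h and -1.76 at POL6326 2 h. For miR-212 they were -0.90 at SDF-1α 2 h and -1.03 at POL6326 2 h, and for let-7i 0.98 at SDF-1α 2 h and 0.66 at POL6326 2 h. miR-30c and miR-10a read under the lowest control array on all 9 arrays of the other SDF-1α times and on all 12 POL6326 arrays.

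The widest gaps from POL6326 at 2 h lay in probes that missed the threshold against control. miR-138 (its plain probe), miR-146a, miR-590-5p, miR-186, miR-506 and miR-556-5p were at the floor on all SDF-1α 2 h arrays and above it on all POL6326 2 h arrays. Among them miR-146a averaged 7.84 at POL6326 2 h (log2 difference -3.50, SE 0.58, adjusted p = 0.000766). In the other direction miR-572 averaged 10.65 at SDF-1α 2 h against 6.99 at POL6326 2 h (log2 difference 3.66, SE 0.61, adjusted p = 0.000766), and miR-196a was higher by 2.96 (adjusted p = 0.0334). miR-484 averaged 11.98 at SDF-1α 2 h against 10.83 at POL6326 2 h, above the floor on all arrays (log2 difference 1.15, SE 0.19, adjusted p = 0.000842). miR-30b, too, was higher at SDF-1α 2 h than at POL6326 2 h, by 0.86 (adjusted p = 0.0415), and miR-136* had a log2 difference of -2.71 (adjusted p = 0.000766).

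Within the SDF-1α series, the 2 h arrays differed from the 1 h arrays at 17 probes (2.2%), all 17 of them higher at 2 h, from the 4 h arrays at 3 (0.388%) and from the 8 h arrays at 16 (2.07%). Of the 20 probes that differed from control, 5 also differed between 2 h and 1 h, 2 between 2 h and 4 h, and 7 between 2 h and 8 h. These comparisons share the SDF-1α 2 h arrays by which the 20 were picked. In the fit with floor values as deposited, miR-196b differed from every other SDF-1α time. With floor values at the detection limits its adjusted p was 0.00620 against 8 h, 0.0538 against 4 h and 0.338 against 1 h. From a mean of 4.33 in control it read 4.33 after 1 h, 6.72 after 2 h, 4.76 after 4 h and then 4.31 after 8 h, and only 1 of the 9 arrays of other SDF-1α times was above its floor. miR-548d-3p also differed from all other times, with log2 differences of 1.52 against 1 h, 1.88 against 4 h and 1.50 against 8 h, of which those to 4 h and 8 h missed the threshold with floor values at the detection limits (adjusted p = 0.221 and 0.130) and that to 1 h turned to -1.23. The 1 h arrays had only 210 to 241 probes above the floor, with detection limits of 7.19, 6.88 and 7.42. The 1 h arrays hold no value between the floor and these limits, where the 2 h levels of miR-196b and miR-548d-3p mostly lie. Of the 17 probes, 14 were at the floor on all 1 h arrays. With floor values set to each array's own limit, 515 probes differed from 1 h, 500 of them lower at 2 h, and 370 of the 500 were at the floor on all 6 arrays, so that only the limits differ there. The direction of the differences from 1 h is therefore not settled for probes at the floor at 1 h whose 2 h values do not all exceed those limits. miR-758, at the floor on all 1 h arrays, read 8.21, 8.21 and 8.75 at 2 h, over every 1 h limit.

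Between 2 h and 8 h of SDF-1α, 7 of the 20 probes differed, each with the 2 h mean farther from control than the 8 h mean or on the other side of it. The 20 were picked by how far the same 2 h arrays lay from control, so this direction is partly set by that choice. miR-212 averaged 10.49 at 2 h against 11.19 at 8 h (log2 difference -0.70, SE 0.18, adjusted p = 0.0420), and its precursor was also lower at 2 h than at 8 h (log2 difference -0.78, adjusted p = 0.0175). miR-543 averaged 8.75 at 2 h against 9.93 at 8 h (log2 difference -1.18, adjusted p = 0.0107). miR-138-1* was higher at 2 h than at 8 h by 0.61, the miR-431 precursor by 0.60 and the miR-658 precursor by 0.79. With floor values at the detection limits miR-196b and miR-543 kept their calls against 8 h, and the other 5 missed the threshold. let-7d, uncalled against control, was higher at 2 h than at 8 h by 1.92 (adjusted p = 0.0235). miR-30c, miR-10a and miR-128a did not differ from any other SDF-1α time by this test.

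**Figure D4:**
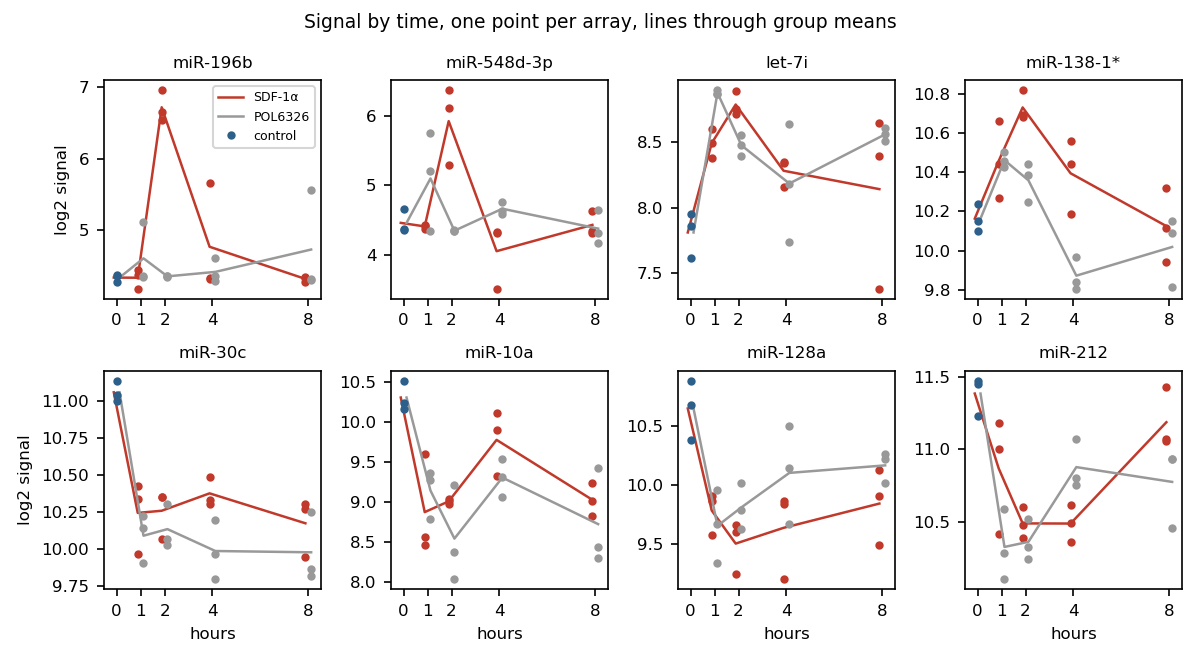
Log2 signal (vertical axis) against hours (horizontal axis) for 8 of the called probes, with 1 point per array and lines through the group means, SDF-1α in red, POL6326 in grey and the shared 0 h control in blue. The 3 SDF-1α 2 h arrays have the highest values of miR-196b, mostly under the 1 h detection limits of 6.88 to 7.42. miR-30c is under every control array in all treated groups.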

How the data were processed

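The deposited table holds log2 signals of biotin-labelled cDNA for 784 probes on 27 arrays, read as log2 from their range. How the scans were read, background-corrected and normalized is not given in the sources used here. An array's most frequent value set its floor, and the lowest value above that its detection limit (tolerance 1e-04). Depth is given by how many probes exceed the floor. A fold written "at least" sets the brighter group's mean against the mean detection limit of the other group's arrays. A fitted difference that includes floor values, and its SE and p-value, depend on where the floor lies.

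A linear model with 9 group means was fitted over the 27 arrays (limma 3.58.1, R 4.3.3, empirical Bayes, 18 residual and 0.90 prior degrees of freedom). P-values are two-sided and Benjamini-Hochberg adjusted over 774 probes, with the threshold at 0.05. A probe made constant over all arrays by an alternative was not tested there. Groups were counted as not overlapping with floor values set to their array's detection limit.

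The members and the 23 lists, matched by miRNA name, were chosen with earlier results of these data known. Named probes were the calls in each direction, up to 12, the probes seen in 1 group only, let-7a, the 8 brightest mature probes, and the 2 list members with the smallest p. Others were chosen after their values were seen: the partner, relative and marker probes, and the probes of the POL6326 and time comparisons. The script was checked on simulated data. Alternatives were median centring, quantile normalization, filters and limits at the floor, a replicate block, the count above the floor as a covariate, other moderation, only the groups compared, a minimum change of 0.58 and leaving out each array.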

Additional observations from a re-analysis of the deposited data

Results flagged for a closer look

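The following probes are listed because they differed from control at SDF-1α 2 h and the difference from another treated group was itself tested and passed with floor values as deposited. All these comparisons share the SDF-1α 2 h arrays. Against POL6326 2 h the log2 differences were 2.37 for miR-196b, 1.58 for miR-548d-3p, 0.56 for the miR-658 precursor and -1.80 for miR-125b-2*. Against SDF-1α 1 h they were 2.39 for miR-196b, 2.46 for miR-137, 1.81 for miR-561, 1.52 for miR-548d-3p and 1.43 for miR-125b-2*, all 5 at the floor on every 1 h array. Those 5 values depend on where the floor lies, and with floor values at the detection limits they were -0.44, -0.30, -0.95, -1.23 and -1.32 in the same order, so no direction against 1 h is settled. Against SDF-1α 4 h they were 1.96 for miR-196b and 1.88 for miR-548d-3p. Against SDF-1α 8 h they were 2.41 for miR-196b, 1.50 for miR-548d-3p, 0.79 for the miR-658 precursor, 0.61 for miR-138-1*, 0.60 for the miR-431 precursor, -0.70 for miR-212 and -1.18 for miR-543.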

How the results depend on the processing

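The labels do not say that replicate numbers pair the arrays, and same-numbered SDF-1α 2 h and control arrays did not deviate together (correlations of -0.03, -0.05 and -0.004 over 222 probes). With the replicate block 19 probes differed from control, 17 of them among the 20, and the block gave 31, 18, 3 and 17 calls against POL6326 2 h and SDF-1α 1 h, 4 h and 8 h. The 20 calls became 13 with only the groups compared, 13 among the 222 probes above the floor on all 6 arrays and 5 with floor values at their own array's limit, the last 2 chosen after seeing the data. Leaving out 1 array gave 1 to 29 calls. A single detection limit gave 12 higher and 13 lower among the 402 probes not constant over all arrays, quantile normalization 12 higher and 6 lower, and other settings 16 to 20 calls. Against POL6326 2 h there were 17 to 27 calls without 1 array. Against SDF-1α 1 h there were 29 with median centring, 30 without probes mostly at the floor, 27 with the covariate, 9 of 320 probes tested with 1 limit and 515 with own limits, and 3 to 21 without 1 array. With own limits 500 of those calls were lower at 2 h, where the 1 h limits put in for the floor are higher, and with 1 limit 6 were. Of the calls against 1 h that were higher, miR-561, miR-548d-3p and miR-125b-2* were lower past the threshold with own limits. Against SDF-1α 4 h there were 0 without probes mostly at the floor (32 at an unadjusted p under 0.05 in limma), 0 with own limits (49 unadjusted) and 3 to 9 without 1 array, and against 8 h 10 with own limits and 12 to 32 without 1 array. The median difference was 0.10 with median centring, -8.33e-05 with quantile normalization, 0 with 1 limit and from -0.0186 (without control array 1) to 0.0280 (without control array 3). The difference in probes above the floor ran from -107 to 44.8 without 1 array. Against control, no named probe changed direction while past the threshold in the settings run. Other causes were not tested.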
